A study of Homo sapiens with 4 samples.

Results

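The 10 genes described here handle iron or set how a cell meets iron-driven lipid damage: HMOX1, FTH1, FTL, TFRC, SLC40A1, SLC3A2, GPX4, AIFM2, ACSL4 and NCOA4. They were chosen by name, with earlier results of these data known. All 10 were found by their Ensembl gene ID among the 17041 genes of the expression table. Of the 3768 splice junction events in the splicing table, 1 belonged to a member, ACSL4. Polyadenylated RNA was sequenced from A549, a human lung adenocarcinoma line, in 4 libraries of 1 batch. The wild-type group has 2 libraries with RBM10 intact. The RBM10 knockdown group has 2, from cells transduced with lentivirus for an RBM10 shRNA and kept in 1 µg/mL puromycin for 10 to 14 days, which gives a selected population and not a clone. RBM10 binds RNA and takes part in the choice of splice sites. The labels do not state whether replicates were separate cultures, so a p-value covers the spread of these libraries alone, which may be technical. They state no control construct or puromycin for wild-type cells, so knockdown and transduction with selection cannot be told apart.

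Cells take up iron bound to transferrin through the transferrin receptor, store it in ferritin, release it from ferritin by autophagy and export it through ferroportin. Iron regulatory proteins bind a short stem-loop, the iron-responsive element, in the mRNAs of these genes: bound in front of the coding sequence it holds back translation, bound behind it it protects the mRNA from decay. Free iron also drives the peroxidation of membrane lipids, and ferroptosis is the form of cell death that follows when glutathione-dependent and quinone-dependent repair cannot keep up. A549 cells carry an inactive KEAP1, so the transcription factor NRF2, which drives ferritin, haem oxygenase and glutathione genes, is constitutively active in them.

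Iron-responsive elements are shown because they are what the iron storage, uptake and export members share in sequence. The search asked for a C, any 5 bases, the loop CAGTGN and 5 bases able to pair with the first 5 (G-T pairs allowed), on the sense strand of GENCODE v29 coding transcripts. It matched 4 of the 10 members, and 291 of 19669 genes (1.48%). Capitals mark the bulged C and the loop. The FTH1 site lies in its 5' UTR at chr11:61967576-61967600 (minus strand), that of FTL in its 5' UTR at chr19:48965337-48965361 (plus strand), and that of SLC40A1 in its 5' UTR at chr2:189580663-189580687 (minus strand), in hg38. TFRC held 4 matches in its 3' UTR, of which the first is at chr3:196050981-196051005 and the last at chr3:196050465-196050489 (minus strand).
FTH1: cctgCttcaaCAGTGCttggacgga
FTL: cttgCttcaaCAGTGTttggacgga
SLC40A1: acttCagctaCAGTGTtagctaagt
TFRC, first: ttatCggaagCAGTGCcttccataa
TFRC, last: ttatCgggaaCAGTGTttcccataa
The 4 genes with these letters did not share a direction in the values given below: FTH1 and FTL fell, SLC40A1 was called higher and TFRC did not pass the test. Translation was not measured.

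RefSeq promoter windows (around each gene's start, GRCh38.p14) matched 8 of the 10 members, in 13 windows. HMOX1 and FTH1 had no entry. The core of the antioxidant response element, the NRF2 site, was searched as TGACNNNGC on both strands. It stood in 3 of these windows, of SLC3A2, AIFM2 and NCOA4, against 13.3% of all 35116 windows. The 2 matches that lie before the start are shown because one gene fell and the other did not pass the test. Capitals mark the core, which in both also holds the AP-1 letters TGANTCA (7.71% of all windows). The SLC3A2 stretch is chr11:62881632-62881698 (plus strand) and the AIFM2 stretch chr10:70132826-70132877 (minus strand, with the core on the opposite strand of the gene).
SLC3A2: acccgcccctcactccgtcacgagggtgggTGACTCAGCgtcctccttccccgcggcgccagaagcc
AIFM2: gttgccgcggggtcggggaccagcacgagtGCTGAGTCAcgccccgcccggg
A match is a description of letters, not of a bound site. The GC box GGGCGG, the Sp1 site, was in 12 of the 13 member windows and in 45.0% of all windows.

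Expression was read as RPKM, reads per gene length and library depth, and compared on log2(RPKM + 1). On that scale the change of a gene at a low level is understated. RBM10 mRNA measured 35.5 and 40.8 RPKM in the wild-type libraries, against 11.6 and 10.9 RPKM in the knockdown libraries, lower as labelled. Library depth was 84.5% to 100.0% of the deepest library. Of 8 A549 and epithelial markers 7 were in the table and all 7 reached 1 RPKM, with sums of 5917 to 7080.5 RPKM. Within that sum the markers went different ways. KRT18 had 1731 and 1855 RPKM in knockdown against 890.3 and 973 RPKM in wild type, and KRT8, KRT19, EPCAM and ALDH1A1 were also higher in both knockdown libraries. AKR1B10 had 1309 and 1442 RPKM in knockdown against 2769.8 and 2687 RPKM in wild type, and CDH1 had 3.23 and 3.40 RPKM against 3.17 and 2.78 RPKM. Of the markers of other cells that handle much iron, hepatocyte genes were near 0, with sums of 0.0434 to 0.172 RPKM. Erythroid genes summed to 0.559 and 0.482 RPKM in wild type and to 1.01 and 0.965 RPKM in knockdown. Macrophage genes summed to 1.72 to 3.89 RPKM, of which CD68 gave 1.56 and 1.72 RPKM in wild type and 3.49 and 3.57 RPKM in knockdown. That is about the level of EPCAM, at 1.51 and 1.87 RPKM in wild type and 4.03 and 3.99 RPKM in knockdown. HBB, ALAS2, ALB and HAMP were not listed. The part of these marker differences in the results was not tested.

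In knockdown, 4 of the 10 members fell and 2 rose in limma at a Benjamini-Hochberg adjusted p under 0.05. Over all 10182 genes tested, 7.03% fell and 15.3% rose. These shares depend on the level of the genes. Among the 5723 genes averaging 5 RPKM or more in either group, 627 fell and 796 rose, with a median change of -0.03. There 4 members fell and 1 rose, ACSL4, which entered through the knockdown group alone. The members that fell were both ferritin chains, FTL and FTH1, the haem-degrading enzyme HMOX1 and the amino acid transporter subunit SLC3A2, by 0.51 to 0.84 on the log2 scale. ACSL4, which loads polyunsaturated fatty acids for membrane lipids, rose about 3-fold, and the iron exporter SLC40A1 was called higher with a small change. TFRC, NCOA4, GPX4 and AIFM2 did not pass. The 2 groups did not overlap in 8 of the 10 members, 6 lower and 2 higher, against 61.5%, 27.3% and 34.3% of all genes tested. The median change of the members was -0.26, against 0.02 over all genes tested. Since the members were chosen with earlier results of these data known, their counts and median are not independent of the values. In bulk RNA, fewer cells with a transcript and less of it per cell cannot be told apart.

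**Figure D1:**
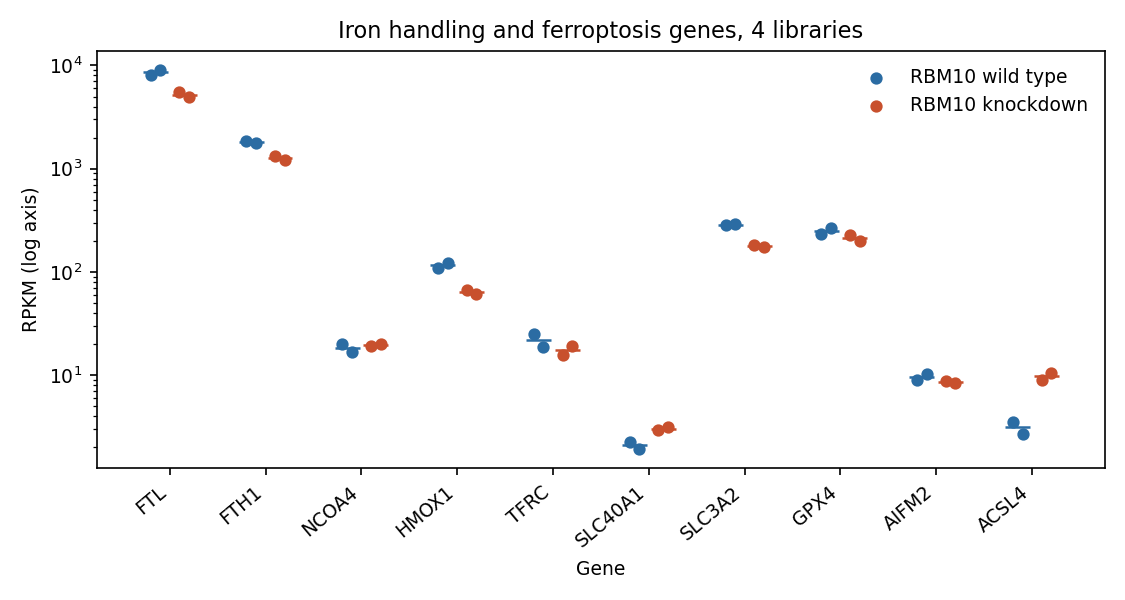
RPKM of the 10 members in each library (log axis); points are libraries, blue for RBM10 wild type and red for RBM10 knockdown, and short lines are group means (n = 2 each). The knockdown points of FTL, FTH1, HMOX1 and SLC3A2 lie below the wild-type points, those of ACSL4 lie above (9.08 and 10.5 against 3.52 and 2.72 RPKM), and those of TFRC and NCOA4 overlap.

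Ferritin light chain, FTL (chromosome 19, 48965301 to 48966878, hg38), builds the ferritin shell and supports the mineral core. It had the highest RPKM of all genes in every library and held 1.71% to 2.98% of a library's sum. It measured 8017 and 9094 RPKM in the wild-type libraries, against 5521 and 4895 RPKM in the knockdown libraries. Both knockdown values lay below both wild-type values. The knockdown mean was 60.9% of the wild-type mean, and the log2 change was -0.72 (SE 0.10; limma, adjusted p = 8.83e-04). The change of FTL cannot be read after quantile normalization, which gives the top gene of every library the same value.

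Ferritin heavy chain, FTH1 (chromosome 11, 61959718 to 61967660), carries the ferroxidase site that oxidises iron for storage. It ranked between 12 and 27 among all genes in the 4 libraries. It measured 1841 and 1784 RPKM in the wild-type libraries, against 1332 and 1213 RPKM in the knockdown libraries, with no overlap. The knockdown mean was 70.2% of wild type, and the log2 change was -0.51 (SE 0.09; limma, adjusted p = 0.00316). With no filter on low values the fit covered 17041 genes and also estimated its gene variances over all of them. There FTH1 and FTL had adjusted p = 0.0571 and 0.0668 in limma at the same changes. GENCODE v29 names 25 pseudogenes of FTH1 and 16 of FTL, of which 0 are in the table, and how reads shared with them were counted is not given in the sources used here. BEST1, which overlaps FTH1 on the other strand, was at 0.0260 to 0.0513 RPKM.

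NCOA4 (chromosome 10, 46005088 to 46030714) is the cargo receptor that takes ferritin to the lysosome, where its iron is set free. It measured 19.9 and 16.8 RPKM in the wild-type libraries, against 19.0 and 19.9 RPKM in the knockdown libraries. The groups overlapped. Its log2 change was 0.08 with a 95% interval of -0.17 to 0.33 (limma, adjusted p = 0.639). That interval does not reach the decreases fitted for FTL and FTH1, though the difference between the genes was not tested.

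HMOX1 (chromosome 22, 35380361 to 35394214), haem oxygenase 1, opens haem and sets its iron free. It measured 108 and 123 RPKM in the wild-type libraries, against 67.1 and 60.6 RPKM in the knockdown libraries. The groups were well apart, with a knockdown mean of 55.4% of wild type. This was the largest fitted decrease among the 10 members, with a log2 change of -0.84 (SE 0.11; limma, adjusted p = 4.86e-04). HMOX2, the constitutive haem oxygenase, measured 7.90 and 7.88 RPKM in the wild-type libraries, against 6.90 and 7.68 RPKM in the knockdown libraries and did not pass (limma, adjusted p = 0.545).

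TFRC (chromosome 3, 196027183 to 196082189), the transferrin receptor, brings iron into the cell. It measured 25.0 and 18.6 RPKM in the wild-type libraries, against 15.7 and 19.2 RPKM in the knockdown libraries. Its 4 values overlapped, and the wild-type libraries differed by 29.4% of their mean, the widest replicate gap among the members. Its log2 change was -0.30 with a 95% interval of -0.63 to 0.04 (limma, adjusted p = 0.185). Its size rested on single libraries. Without wild-type replicate 2 the change was -0.50 and passed (limma, adjusted p = 0.0230), while without wild-type replicate 1 it was -0.09 (0.693) and without knockdown replicate 1 it was -0.16 (0.615).

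SLC40A1 (chromosome 2, 189560579 to 189583758), ferroportin, is the known exporter of iron from cells. It had the lowest level of the 10 members, with 2.25 and 1.92 RPKM in the wild-type libraries, against 2.94 and 3.14 RPKM in the knockdown libraries. The knockdown libraries were both higher, with a mean ratio of 1.46. The log2 change was 0.39 (SE 0.12; limma, adjusted p = 0.0378). This call ended without wild-type replicate 2 (adjusted p = 0.161), without knockdown replicate 1 (0.0786) and without knockdown replicate 2 (0.170). It also ended with no filter, a filter at 5 RPKM (where the gene is not tested), quantile or cyclic loess normalization and the replicate block, while the change stayed between 0.26 and 0.53.

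SLC3A2 (chromosome 11, 62856102 to 62888875), the CD98 heavy chain, carries amino acid transporters to the membrane, among them the cystine importer SLC7A11 that feeds glutathione synthesis. It measured 286 and 289 RPKM in the wild-type libraries, against 183 and 175 RPKM in the knockdown libraries, the tightest wild-type pair of the 10. The knockdown mean was 62.2% of wild type, with a log2 change of -0.68 (SE 0.09; limma, adjusted p = 5.66e-04). SLC7A11 itself, named after its values were seen, measured 4.66 and 3.02 RPKM in the wild-type libraries, against 3.01 and 4.31 RPKM in the knockdown libraries, with no call (limma, adjusted p = 0.878). This light chain stood far below the heavy chain on the RPKM scale in every library.

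GPX4 (chromosome 19, 1103926 to 1106791) is the selenium-containing peroxidase that reduces lipid peroxides in membranes. It measured 234 and 268 RPKM in the wild-type libraries, against 228 and 199.9 RPKM in the knockdown libraries. Both knockdown values were below both wild-type values, but by little, as 234 and 228 RPKM show. Its log2 change was -0.23 with a 95% interval of -0.47 to 0.01 (limma, adjusted p = 0.151). The change ran from -0.33 to -0.13 without 1 library, the smallest without wild-type replicate 2, and was -0.12 under quantile and -0.13 under cyclic loess normalization. AIFM2 (chromosome 10, 70098223 to 70132934), also called FSP1, regenerates reduced coenzyme Q in membranes. It measured 9.03 and 10.3 RPKM in the wild-type libraries, against 8.83 and 8.45 RPKM in the knockdown libraries, with a log2 change of -0.14 and a 95% interval of -0.39 to 0.11 (limma, adjusted p = 0.392). It was -0.06 without wild-type replicate 2 and -0.23 without wild-type replicate 1. MACROH2A2 overlaps AIFM2 on the other strand at a similar level. It had 8.02 and 8.77 RPKM in wild type and 9.69 and 10.3 RPKM in knockdown, higher in both knockdown libraries. The libraries were stranded, but whether counting used strand is not stated, so either value could hold reads of the other.

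ACSL4 (chromosome X, 109624244 to 109733403), a long-chain acyl-CoA synthetase, prefers arachidonic acid and other polyunsaturated fatty acids, whose phospholipids are the ones peroxidised in ferroptosis. It measured 3.52 and 2.72 RPKM in the wild-type libraries, against 9.08 and 10.5 RPKM in the knockdown libraries. The groups did not overlap, and the knockdown mean was 3.13 times the wild-type mean. Its log2 change of 1.39 (SE 0.13; limma, adjusted p = 8.76e-05) was the largest of the 10 members and rose to 1.62 with a pseudocount of 0.1. KCNE5 and AL118496.2 overlap it, the first on the same strand, and neither was listed with expression values. Whether their reads were counted for ACSL4 cannot be checked.

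**Figure D2:**
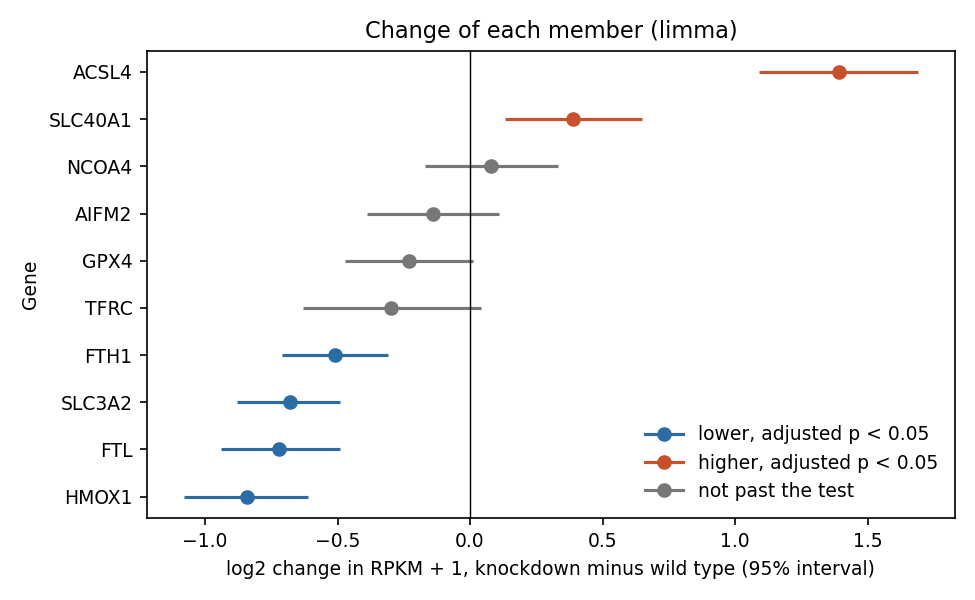
The log2 change of each member, knockdown minus wild type, on the RPKM + 1 scale (points, limma) with its 95% interval (lines); colour gives the call at a Benjamini-Hochberg adjusted p under 0.05. HMOX1, FTL, SLC3A2 and FTH1 lie left of 0, from -0.84 to -0.51, ACSL4 lies at 1.39, and the intervals of TFRC, GPX4, AIFM2 and NCOA4 cross 0.

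RPKM is scaled by gene length, so levels can be ordered between members as far as the inferred unit holds. The counting method is unknown, and the limits given above for FTH1, FTL and AIFM2 apply to this order. In wild type the order of the mean RPKM was FTL, FTH1, SLC3A2, GPX4, HMOX1, TFRC, NCOA4, AIFM2, ACSL4 and SLC40A1. Only TFRC and NCOA4 overlapped among neighbours in that order. In knockdown 3 pairs of neighbours had changed places. GPX4 (199.9 and 228 RPKM) stood above SLC3A2 (175 and 183 RPKM), NCOA4 had the higher mean beside TFRC, where values overlapped, and ACSL4 (9.08 and 10.5 RPKM) stood above AIFM2 (8.45 and 8.83 RPKM).

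Ratios between members compare them within a library and do not depend on its scaling. They are given as values, since 2 libraries against 2 cannot reach a p under 0.05 in an exact permutation test. FTH1 to FTL, the balance of the ferritin chains, was 0.230 and 0.196 in wild type and 0.241 and 0.248 in knockdown. Both knockdown libraries were higher, with means of 0.213 ± 0.0236 and 0.245 ± 0.00459 (SD, n = 2 each), and the knockdown mean was 1.07 times wild-type replicate 1 and 1.25 times wild-type replicate 2. TFRC to FTH1, uptake against storage, was 0.0136 and 0.0104 in wild type and 0.0118 and 0.0159 in knockdown, and the groups overlapped. SLC40A1 to TFRC, export against uptake, was 0.0898 and 0.103 in wild type and 0.188 and 0.163 in knockdown. Both knockdown libraries were higher, with means of 0.0966 ± 0.00963 and 0.176 ± 0.0174 (SD, n = 2 each).

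**Figure D3:**
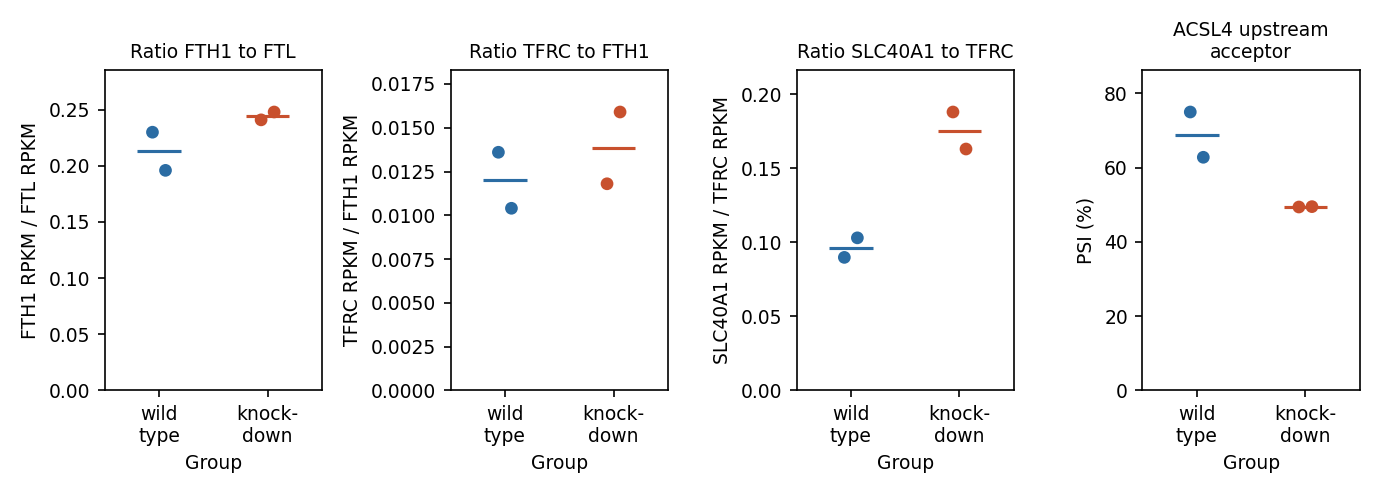
Ratios of RPKM between members and the PSI of the upstream ACSL4 acceptor in each library; points are libraries, lines are group means (n = 2 each), and every vertical axis starts at 0. Knockdown libraries lie above wild type in SLC40A1 to TFRC (0.188 and 0.163 against 0.0898 and 0.103) and below in the ACSL4 PSI (49.4% and 49.5% against 75.0% and 62.8%), and TFRC to FTH1 overlaps.

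Whole multiples in the deposited RPKM give the read numbers behind them, up to a factor common to the 4 libraries that is taken as 1 here. ACSL4 rested on at least 788, 616, 1735 and 2263 reads in the wild-type libraries 1 and 2 and then the knockdown libraries 1 and 2. SLC40A1 rested on at least 340, 294, 380 and 459, the fewest of the 10 members. FTL had the most, 144239 to 281224. In 15 of 20 replicate pairs of members the gap was more than 2 times its counting error, up to 45.7 times for FTL in wild type. The gap was 1.95 and 0.941 times the counting error for SLC40A1. So for most members the spread between libraries, not the depth, set the precision. PCR copies are counted here as reads, and this covers counting error only.

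The splicing table gives the PSI, the share of reads that use an examined junction, and lists only events whose spread over the libraries was 0.150 or more. It held 1 event of ACSL4 and 0 of the other 9 members, which does not show that their splicing was the same. The ACSL4 event is a choice between 2 acceptors 3 bases apart, at the end of the intron from 109696144 on chromosome X. In 1 coding transcript of GENCODE v29 the downstream acceptor opens exon 3 in the 5' UTR, 9 bases before the start codon. The region at chrX:109683361-109683390 (minus strand, hg38) is shown because both acceptors can be read from it. It was read from another GENCODE v29 transcript of ACSL4, whose exon runs across both and has them within its coding sequence. Capitals mark the 3 bases that only the upstream acceptor keeps. Below it are the spliced RNAs of the examined (upstream) and the background (downstream) junction.
Acceptors: cttaccaatgccaagAAGaaaaacgctatg
Upstream acceptor: gaggacatttAAGaaaaacgctatg
Downstream acceptor: gaggacatttaaaaacgctatg
The tandem reads AAGAAG before the downstream site, and the final atg is the start codon of the first transcript. In that transcript both choices lie outside the coding sequence.

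The upstream ACSL4 acceptor had a PSI of 75.0% and 62.8% in wild type and of 49.4% and 49.5% in knockdown. Both knockdown values were below both wild-type values, and the knockdown pair was far tighter. The difference was -19.4 percentage points with a 95% interval of -41.1 to 2.24, and it did not pass (limma over 3744 events, adjusted p = 0.281). In that test 4 events passed, or 0.107%. It also missed the unadjusted threshold of 0.05, which 18.4% of events passed with a difference of 0.1 or more. The difference was -13.3 points without wild-type replicate 1 and -25.5 without wild-type replicate 2. The depth behind a PSI is unknown, and the gene as a whole had fewer reads in wild type, as given above.

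The other genes of these pathways were taken from 6 lists with 152 genes, of which 139 were in the table and 119 were tested. In limma 13 of the 119 fell and 20 rose, beside 7.03% and 15.3% over all genes tested. Their median change was -0.03. CP among the 13, and TFR2, ATF3 and MBOAT2 among the 20, averaged 1 RPKM or more in 1 group only, where each is higher. Each thus entered the test through that group alone. At an unadjusted threshold of 0.05, 13.6% of all genes tested were lower and 22.0% higher. At that threshold 7 genes were lower and 2 higher in the iron uptake list, 3 and 3 in the haem list, 9 and 5 in the defence list, and 1 and 2 in the ferritinophagy list, and the other lists are given below. The lists differed in their counts, as follows, and no list was tested as a set. They too were chosen with earlier results of these data known, so their counts are a description only.

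In the list of lipid peroxidation and ferroptosis drivers, where ACSL4 belongs by function, 8 of 16 tested genes rose and 0 fell in limma, the same numbers as at the unadjusted threshold, with a median change of 0.24. LPCAT3, which puts polyunsaturated acyl chains into phospholipids, measured 9.62 and 9.33 RPKM in the wild-type libraries, against 17.8 and 16.2 RPKM in the knockdown libraries (log2 change 0.78; limma, adjusted p = 7.46e-04). The desaturase FADS2, of polyunsaturated fatty acid synthesis, was at 18.8 and 20.1 RPKM and at 33.3 and 32.2 RPKM (0.72; adjusted p = 7.97e-04). The knockdown libraries of both genes lay above both wild-type libraries. SAT1, of polyamine breakdown, was at 106 and 94.6 RPKM and at 145 and 131 RPKM (0.46; adjusted p = 0.0109). ATF3, a stress-induced transcription factor, was at 0.544 and 0.718 RPKM and at 1.14 and 1.30 RPKM (0.44, limma adjusted p = 0.0210). It entered the test, and so the count of 8, through the knockdown group alone, where it is higher. ATF3 lost its call without wild-type replicate 1, with no filter and under quantile or cyclic loess normalization, and is not tested with the filter at 5 RPKM. SAT1 lost its call without knockdown replicate 1 and with no filter. Among the others that rose were FADS1, ELOVL5 and PTGS2, with changes of 0.34 to 0.42. Each lost its call without wild-type replicate 2, without either knockdown library, with no filter and with the replicate block. Of the 8, LPCAT3, FADS1, FADS2 and ELOVL5 are known to make polyunsaturated fatty acids or place them in phospholipids. The count of 8 fell to 3 without knockdown replicate 1 and with no filter, to 4 without wild-type replicate 2, without knockdown replicate 2 or with the replicate block, and to 5 under quantile normalization. The channel VDAC2 and PEBP1, the most abundant that did not pass, averaged 166 ± 15.2 and 88.9 ± 6.24 RPKM in the wild-type libraries, against 151 ± 10.7 and 84.8 ± 3.10 RPKM in the knockdown libraries (SD, n = 2 each).

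In the list of cystine, glutathione and lipid peroxide defence, 7 of 24 tested genes fell and 4 rose, with a median change of -0.15. GCLC, the catalytic subunit of the first step of glutathione synthesis, averaged 30.8 ± 3.80 RPKM in the wild-type libraries, against 16.1 ± 1.55 RPKM in the knockdown libraries (SD, n = 2 each; log2 change -0.89; limma, adjusted p = 7.20e-04). PDSS1, of coenzyme Q synthesis, was at 16.7 and 13.9 RPKM and at 9.29 and 9.09 RPKM (-0.67; adjusted p = 0.00304). Each of these genes had both knockdown values below both wild-type values. Also lower were GSR, TXNRD1, NQO1, DHODH and KEAP1, by 0.39 to 0.58. KEAP1 is the NRF2 repressor that is inactive in these cells and not a defence enzyme, so its decrease does not stand for less defence. KEAP1 lost its call without wild-type replicate 2, without either knockdown library, with the replicate block and with no filter. TXNRD1 lost its call with no filter and under quantile normalization. GCLM and GSS, of the same synthesis as GCLC and named after their values were seen, did not pass (limma, adjusted p = 0.131 and 0.810). Of the genes that rose, CTH, which makes cysteine from cystathionine, was at 1.84 and 1.56 RPKM and at 4.09 and 3.84 RPKM (0.88; adjusted p = 6.63e-04). SCD, which makes monounsaturated fatty acids, was at 15.3 and 13.1 RPKM and at 24.4 and 26.7 RPKM (0.81; adjusted p = 8.83e-04). CBS, the enzyme before CTH, and MBOAT2 rose by 0.58 and 0.46. Of these, MBOAT2 was under 1 RPKM in both wild-type libraries and entered the test through the knockdown group alone. MBOAT2 lost its call without wild-type replicate 2, with no filter and under quantile or cyclic loess normalization. With the filter at 5 RPKM, where CTH and MBOAT2 are not tested, 2 rose. PRDX6 (95.5 ± 2.09 and 87.7 ± 1.19 RPKM) and the glutamine carrier SLC1A5 (88.9 ± 6.56 and 71.9 ± 7.06 RPKM) did not pass (SD, n = 2 each).

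**Figure D4:**
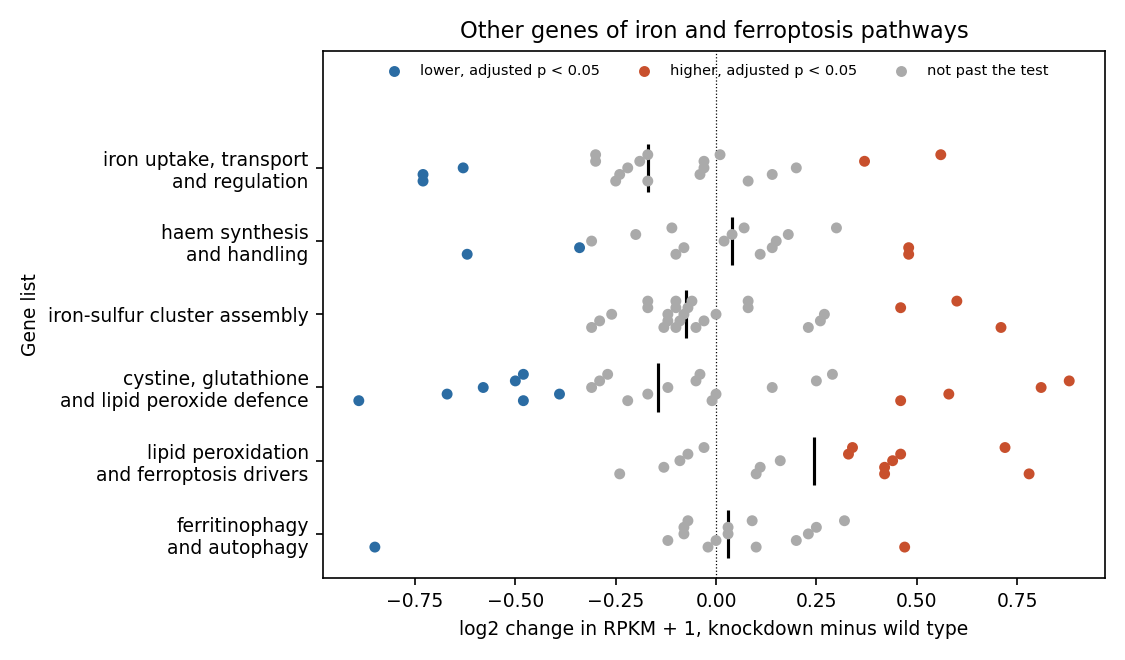
The log2 change of each tested gene in 6 lists, knockdown minus wild type, on the RPKM + 1 scale; colour gives the limma call and black lines are list medians. Among lipid peroxidation and ferroptosis drivers 8 genes are called higher and 0 lower. In the defence list 7 are called lower, with the NRF2 repressor KEAP1 among them, and 4 higher.

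Among genes of iron uptake, transport and regulation, 3 of 20 tested fell and 2 rose, with a median change of -0.17. ACO1, iron regulatory protein 1, which binds the element shown above when cells are short of iron, measured 8.55 and 7.79 RPKM in the wild-type libraries, against 4.48 and 4.55 RPKM in the knockdown libraries (log2 change -0.73; limma, adjusted p = 0.00139). IREB2, iron regulatory protein 2, was at 5.50 and 4.20 RPKM and at 5.00 and 5.87 RPKM, with no call (adjusted p = 0.499). It is named, as HMOX2 was, as a partner after its values were seen. STEAP3, which reduces iron taken up with transferrin, was at 2.94 and 3.36 RPKM and at 1.62 and 1.37 RPKM (-0.73; adjusted p = 0.00218). CP, ceruloplasmin, which oxidises exported iron, was at 2.33 and 1.87 RPKM and at 0.957 and 1.03 RPKM (-0.63; adjusted p = 0.00465). TFR2, the second transferrin receptor, was at 0.537 and 0.543 RPKM and at 1.31 and 1.24 RPKM (0.56; adjusted p = 0.00469), and SLC25A37, the mitochondrial iron importer, rose by 0.37 (adjusted p = 0.0423), a call that ended in each fit without 1 library. TFR2 entered the test through the knockdown group alone and CP through the wild-type group alone, and with no filter both kept their calls. No gene of this list rose under quantile normalization, where 6 fell, and 5 fell under cyclic loess normalization. With the filter at 5 RPKM 1 fell and 0 rose. PCBP2, an iron chaperone, and CUL1, a ligase scaffold, averaged 67.8 ± 3.02 and 39.8 ± 3.79 RPKM in the wild-type libraries, against 57.4 ± 4.33 and 32.1 ± 0.251 RPKM in the knockdown libraries (SD, n = 2 each) and did not pass.

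Haem and iron-sulfur genes moved in small numbers. Of 17 tested haem genes 2 rose and 2 fell, with a median change of 0.04. Without knockdown replicate 1, and with no filter, UROD and ABCB6 lost their calls and 0 rose, and without wild-type replicate 1 UROD lost its call. UROS lost its call without either knockdown library or without wild-type replicate 1. It also did so with no filter, under cyclic loess normalization and with the replicate block. The haem synthesis enzyme UROD and the porphyrin transporter ABCB6 both rose by 0.48, from 16.6 ± 2.59 to 23.5 ± 2.04 RPKM and from 3.29 ± 0.00799 to 5.00 ± 0.313 RPKM (SD, n = 2 each; limma, adjusted p = 0.0221 and 0.0129). The exporter ABCG2 fell from 8.49 ± 1.19 to 5.16 ± 0.0783 RPKM (adjusted p = 0.00586), and UROS, the enzyme before UROD, from 18.9 ± 1.09 to 14.7 ± 0.134 RPKM (adjusted p = 0.0392). BLVRB, a biliverdin reductase and the most abundant that did not pass, averaged 184 ± 25.5 RPKM in the wild-type libraries, against 148 ± 15.1 RPKM in the knockdown libraries (SD, n = 2 each).

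Of 26 tested iron-sulfur cluster genes 3 rose and 0 fell in limma, or 5 were higher and 3 lower at the unadjusted threshold, with a median change of -0.08. Under quantile normalization 2 fell, and without wild-type replicate 2 or with median ratio scaling 1 fell. ISCA2 lost its call without wild-type replicate 1 or knockdown replicate 1, and with no filter. The ferredoxin reductase FDXR rose from 27.6 ± 3.92 to 45.5 ± 4.01 RPKM, its partner ferredoxin FDX1 from 9.72 ± 0.415 to 15.3 ± 0.704 RPKM, and the assembly factor ISCA2 from 10.8 ± 1.74 to 15.1 ± 0.497 RPKM (SD, n = 2 each; limma, adjusted p = 0.00282, 0.00316 and 0.0250). FDXR and FDX1 form 1 electron transfer chain, and both stood higher in each knockdown library than in either wild-type library. HSPA9 and CIAO2B, the most abundant that did not pass, averaged 224 ± 21.9 and 109.6 ± 8.70 RPKM in the wild-type libraries, against 182 ± 7.56 and 116 ± 7.72 RPKM in the knockdown libraries.

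Around NCOA4, 1 of 16 tested ferritinophagy and autophagy genes rose and 1 fell, with a median change of 0.03. SQSTM1, the autophagy receptor p62 and a known NRF2 target, measured 154 and 176 RPKM in the wild-type libraries, against 93.0 and 89.0 RPKM in the knockdown libraries (log2 change -0.85; limma, adjusted p = 3.19e-04). HERC2, the ubiquitin ligase that turns over NCOA4, was at 9.59 and 8.75 RPKM and at 11.2 and 15.1 RPKM (0.47; adjusted p = 0.0382). Its call ended without wild-type replicate 2 or knockdown replicate 2, with no filter and under quantile normalization. The autophagy genes GABARAP and ATG3 averaged 23.8 ± 1.96 and 24.4 ± 4.12 RPKM in the wild-type libraries, against 25.4 ± 0.549 and 24.8 ± 0.937 RPKM in the knockdown libraries (SD, n = 2 each) and did not pass.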

How the data were processed

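The authors deposited a gene table whose values have the form of RPKM, a unit inferred from the values since the table names none, and a table of PSI values, which run as a fraction between 0 and 1, per the file headers. Per the submitters' processing notes, reads were aligned with STAR 2.6.1 to hg38. For the counter, annotation, splicing caller and use of strand, the sources used here give nothing. The members and gene lists were chosen with earlier results of these data known. Gene IDs were named from a table of IDs (16921 of 17041) and GENCODE v29 (85). Genes whose mean reached 1 RPKM in either group were compared as log2(RPKM + 1) in limma 3.58.1 under R 4.3.3 (trended empirical Bayes, no covariate, Benjamini-Hochberg over all 10182 genes). PSI was compared with limma without trend in 3744 events with all 4 values, called where the adjusted p was under 0.05 and the difference reached 0.1. Both tests were also run on simulated data, as a check of the code. For PSI the simulated spread was set in advance and not taken from these data, so it does not give the power of that test here. Named beside the members were RBM10 and, from each list, up to 4 called genes with the largest change whose groups did not overlap and 2 abundant genes without a call. Other names complete a count, and some genes under this rule are not reported here. Relative depth came from ratios of the low RPKM values.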

Additional observations from a re-analysis of the deposited data

How the results depend on the processing

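Of the members, HMOX1, SLC3A2 and ACSL4 kept their call under every other setting of the fit, without each library in turn and with the crossed pairing. FTL and FTH1 did so except with no filter, where 2 members were called lower and 1 higher, and FTL also under quantile normalization. The size of their changes was smaller under some normalizations. It was -0.57 for FTL and -0.38 for FTH1 under cyclic loess, and -0.44 for FTH1 under quantile normalization. Members called higher numbered 1 with the filter at 5 RPKM, under quantile and cyclic loess normalization and with the replicate block, since SLC40A1 lost its call, and 1 to 2 without 1 library. NCOA4, with no call, ran from -0.03 to 0.20 without 1 library, the lowest without wild-type replicate 2 (limma, adjusted p = 0.892). Of the 20 genes of the wider lists called higher, 8 remained with no filter and 13 under quantile normalization, and 11 to 15 without 1 library, the fewest without knockdown replicate 1. With the replicate number as a block, 4 members were lower and 1 higher. Deviations of libraries with the same number correlated at -0.444 over 10182 genes, which gives no sign of pairing by number. With 2 libraries a group this cannot settle how the samples were paired. A crossed pairing, chosen after seeing the data, gave 6 members lower (also TFRC and GPX4, adjusted p = 0.0119 and 0.00976 in limma) and 2 higher, and 27 and 25 genes of the wider lists. The block gave a difference of -19.4 points for the ACSL4 acceptor (adjusted p = 0.353). Over all genes, called higher and lower were 1140 and 1031 under quantile normalization, against 1555 and 716. Other causes were not tested.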

Other observations

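The splicing table held 40 events of 20 genes in the 6 wider lists. In limma 0 of the 40 passed the adjusted test, and 7 (17.5%) passed at an unadjusted threshold of 0.05 with a difference reaching 0.1, beside 18.4% of all 3744 events. The widest of these, named after its values were seen, was a cassette-exon event of ABCB6, a porphyrin transporter of the outer mitochondrial membrane and of lysosomes. Its examined junction had a PSI of 26.9% and 32.4% in wild type and of 90.9% and 90.0% in knockdown, a difference of 60.8 percentage points (limma, adjusted p = 0.146). An event of ALAS1, the first enzyme of haem synthesis, had a PSI of 69.4% and 71.3% in wild type and of 50.5% and 47.1% in knockdown (adjusted p = 0.267).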
